A study of Homo sapiens with 6 samples.

Results

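The mRNAs described here are the 1104 transcripts that carried a site wider than 25 nt in both HITS-CLIP AEG1 libraries, set against the HITS-CLIP libraries made without UV light. They were chosen by that width rule in the AEG1 libraries alone, with no use of the controls, of site position or of the score. They make up 49.0% of the 2253 transcripts with a site in any of the 4 HITS-CLIP libraries, and the series as a whole lists 8204 transcripts over 6 libraries. A further 735 transcripts had such a site in only one of the AEG1 libraries.

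All 4 libraries came from AEG-1-14, a line that the labels derive from HepG3 and call hepatoblastoma, and that stably expresses AEG1 carrying a C-terminal HA tag. The 2 HITS-CLIP AEG1 libraries were made from cells irradiated with UV light at 254 nm, and the 2 negative controls from unirradiated cells of the same line. Both groups went through the anti-HA precipitation, so the controls differ from the AEG1 libraries in the light and not in the protein, and all results concern 1 line with an introduced, tagged copy of AEG1. Nothing in the labels says that replicates came from separate cultures, so the spread between them may be technical, and the number shared by a control and an AEG1 library is only a number. The remaining pair of libraries, 1 PAR-CLIP AEG1 and 1 PAR-CLIP control, lies outside the comparison.

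AEG-1, encoded by MTDH, is a protein of the endoplasmic reticulum membrane. In CLIP, light bonds RNA to the protein that touches it, the protein is precipitated with its RNA fragments, and the fragments are sequenced and piled into sites on mRNAs. An mRNA for a secreted or membrane protein is usually translated by ribosomes docked on the endoplasmic reticulum, where a signal sequence leads the growing chain to the translocon, whereas most mRNAs for cytosolic, nuclear and tail-anchored proteins are translated on free ribosomes.

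Sites were deposited per library with a start and an end on a RefSeq mRNA and the authors' log2 score, without read counts, so read depth is unknown. Widths and positions are in nt of the mRNA, counted from 1. Scores of different transcripts are not on one scale and were compared only within a transcript. The exception is an alternative that used the median score of each library as a limit. The exact same score (within 0.0001) recurred in both AEG1 libraries for some site of 485 of the 1321 transcripts they share (36.7%), and between the first control and the first AEG1 library for 10 of 43. Of 12 liver lineage markers, 10 were among the 1104 mRNAs, including AFP, the fetal plasma protein, and GPC3, a fetal liver proteoglycan, while HNF4A, a liver transcription factor, and DLK1 had no site in any of the 4 libraries. Of 18 markers of blood cells, endothelium and connective tissue, 15 had no site in the 4 libraries. LYZ, or lysozyme, and CD68, a lysosomal membrane protein, were members, and CD14 had 1 site in 1 AEG1 library. The part of other cell types in the results was not tested beyond these counts.

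The AEG1 libraries differed from the controls in the width of their sites as well as in their number. Control replicates 1 and 2 held 39 and 61 sites of 25 nt or less, which were 65.0% and 67.8% of their sites, and AEG1 replicates 1 and 2 held 434 and 396, or 6.80% and 7.01%. The controls therefore consisted mostly of short sites, and the groups did not overlap in this share. A narrow peak of 19 to 22 nt took 55% and 53.3% of the control sites against 4.19% and 4.60% of the AEG1 sites. At the other end, 2 and 4 control sites exceeded 100 nt, against 635 and 590 AEG1 sites. The median width was 21 nt in each control, 51 nt in AEG1 replicate 1 and 52 nt in replicate 2, a difference of 30.5 nt between the group means of 51.5 ± 0.707 (SD, n = 2) and 21 ± 0 (SD, n = 2). The exact permutation test over libraries, two-sided, gave p = 0.333, which is the smallest that 2 against 2 allows and which holds for every comparison of the groups below.

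**Figure D1:**
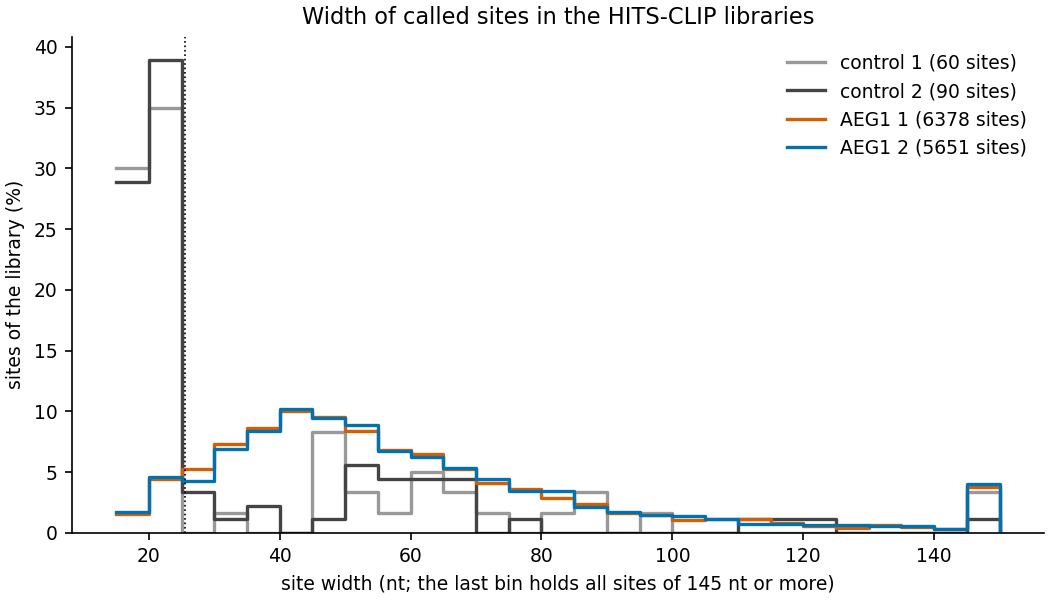
Distribution of site widths in each of the 4 libraries, with width in nt on the horizontal axis and the share of the library's sites in percent on the vertical axis. The controls pile up near 20 nt, with medians of 21 nt, and the AEG1 libraries spread around medians of 51 and 52 nt.

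Among wide sites alone the difference in width turned the other way. The median wide site measured 64 and 58 nt without UV, against 53 and 54 nt with UV, a difference of -7.5 nt between group means of 53.5 ± 0.707 and 61 ± 4.24 (SD, n = 2 each). The contrast in median width above thus lay in the mix of short and wide sites, and the sign depended on the width minimum. Wide sites numbered 21 and 29 in the controls against 5944 and 5255 with UV, and they covered 1611 and 1864 nt against 384699 and 345088 nt. Group means of covered nt stood in a ratio of 210, with no overlap between groups.

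Nearly all wide sites of every library fell on the 1104 mRNAs. In the AEG1 libraries, where the rule itself favours this, the members held 5421 of 5944 and 4929 of 5255 wide sites (91.2% and 93.8%). In the controls, which the rule did not use, they held 21 of 21 and 27 of 29 (93.1%) wide sites. Short sites behaved otherwise. Members held 3 of 39 and 10 of 61 short control sites (7.69% and 16.4%), and 98 of 434 and 72 of 396 short AEG1 sites (22.6% and 18.2%). Over members, wide sites averaged 5175 ± 348 in the AEG1 libraries and 24 ± 4.24 in the controls (SD, n = 2 each), a ratio of 216. Each AEG1 library had more wide sites than either control on 1099 of the 1104 members (99.5%), against 48.8% of all 2253 transcripts, a count that the rule largely fixes. The 5 exceptions were ALB, GC, VCP, CDK6 and PLCG2, and all of them are described below.

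Coverage of single members ranged from one narrow stretch to most of the mRNA. The median member had 3 wide sites over 152 nt in AEG1 replicate 1 and 2 wide sites over 131 nt in replicate 2. At the low end, 262 members (23.7%) had exactly 1 wide site in each replicate. At the high end, 111 members (10.1%) had at least 10 in each, and 65 (5.89%) had at least 1000 nt covered in each. The widest site of a member measured 70 nt at the median in replicate 1 and 67 nt in replicate 2.

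APOB, the structural protein of very-low-density lipoproteins, led with 6956 nt under wide sites in replicate 1 and 6643 nt in replicate 2, and had no control site. C3, the central complement protein, followed with 4789 and 4855 nt, and FN1, or fibronectin, with 4748 and 4832 nt. These 3 leading mRNAs all encode large secreted proteins. APOB stood clear of the others, while C3 and FN1 differed by less than the replicates of either. Next in order came A2M, the plasma protease inhibitor, at 3485 and 3415 nt, and THBS1, the matrix glycoprotein thrombospondin, at 3327 and 3180 nt. AGRN, a basement membrane proteoglycan, had 3488 and 2955 nt, so its order against THBS1 and A2M was not the same in both replicates. IGF2R, the receptor that sorts lysosomal enzymes, had 3003 and 2767 nt. Only 1 of the 12 leading mRNAs was drawn from a list of cytosolic proteins, SPTBN1, a spectrin under the plasma membrane, with 2378 and 2735 nt. GANAB, a glucosidase that trims glycans in the endoplasmic reticulum, had 2202 and 2310 nt. TF, or transferrin, had 2179 and 2172 nt, and ITIH2, a plasma protein that binds hyaluronan, had 2034 and 2199 nt.

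Long mRNAs can hold more nt, so coverage was also set against a span that stands in for length, from the first base to the last nt that any site of the series reached. The median member had 8.27% of this span under wide sites in replicate 1 and 6.99% in replicate 2. C3 was covered over 93.9% and 95.2% of its span, ALB, or serum albumin, over 88.9% and 86.3%, and GC, the vitamin D binding protein, over 86.2% and 86.6%. APOB, first in covered nt, had 49.3% and 47.1%. GDF15, a secreted stress cytokine, had 82.7% and 84.7%, and TF had 84.9% and 84.6%. KMT2A, a histone methyltransferase with a long mRNA, lay at the other extreme with 0.185% and 0.197%.

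The AEG1 replicates placed their wide sites at the same positions for most members. Of the wide member sites of replicate 1, 3757 of 5421 (69.3%, exact Clopper-Pearson 95% interval 68.1 to 70.5, counting error only) overlapped a wide site of replicate 2 by at least 1 nt. In the other direction it was 3751 of 4929 (76.1%, interval 74.9 to 77.3). At least 1 overlapping pair was found in 954 members (86.4%). Among the 262 members with 1 wide site in each replicate, that site was shared in 184 (70.2%, interval 64.3 to 75.7).

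Overlap was higher in members with more coverage, where there is also more room for overlap. Members with 26 to 99 nt covered in the replicate with less numbered 541 and had a median overlap of 66.7%. The 291 members with 100 to 299 nt also had 66.7%, the 207 with 300 to 999 nt had 80.0%, and the 65 with 1000 nt or more had 90.4%. Among members with at least 5 sites in each replicate, every wide site of C3, CYBA, a membrane subunit of the NADPH oxidase, GDF15, IFI30, a lysosomal thiol reductase, SLC39A7, a zinc transporter, and ST6GAL1, a Golgi sialyltransferase, overlapped the other replicate. The lowest overlap lay on long mRNAs that were thinly covered. DYNC1H1, the heavy chain of cytoplasmic dynein, had 661 nt covered in each replicate and shared 8.70% of its wide sites. PIEZO1, a mechanosensitive channel, shared 13.3%, FLNA, an actin crosslinker, 16.7%, and FAT1, a giant cadherin, 23.1%.

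**Figure D2:**
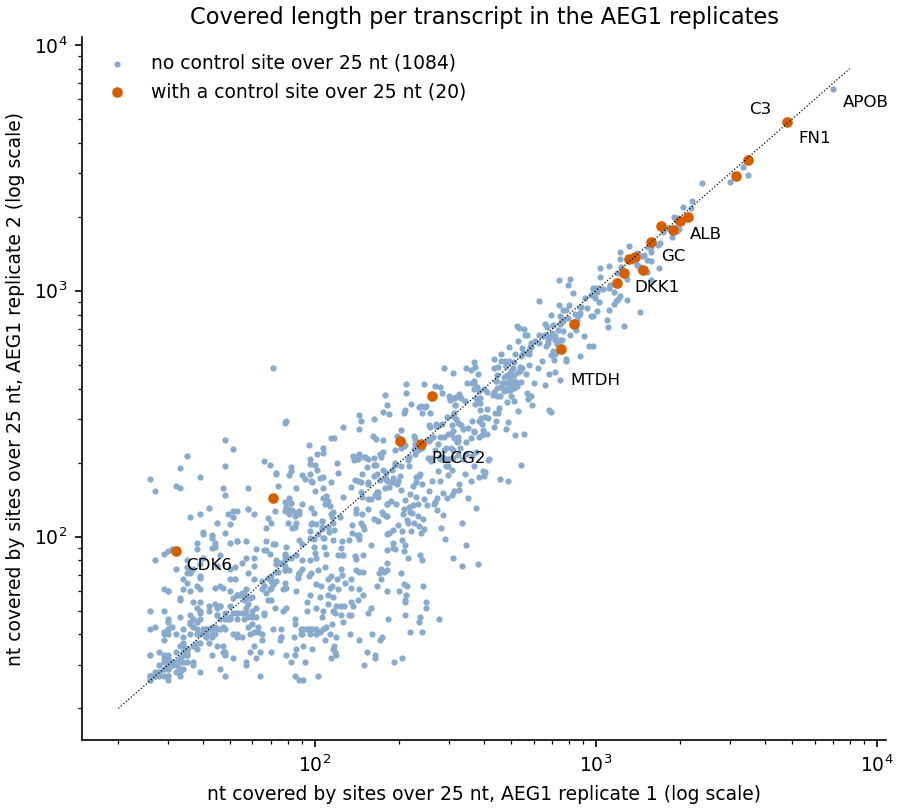
Nt under wide sites in AEG1 replicate 1 (horizontal) and replicate 2 (vertical) for each of the 1104 members, on log axes, with members that also had a wide control site marked. Points follow the line of equality up to APOB at 6956 and 6643 nt, and most marked members lie in the upper range.

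Highest scores of a member also stayed close between replicates. The difference, replicate 1 minus replicate 2, had a median of 0.00 and an SD of 0.89 on the log2 scale over the 1104 members. It was within 1 for 870 (78.8%) and within 2 for 1059 (95.9%), with 529 higher in replicate 1, 473 higher in replicate 2 and 102 equal. The spread narrowed with coverage, from a median absolute difference of 0.68 in the members with 26 to 99 nt to 0.36 in those with at least 1000 nt. The site that held the highest score was less stable than the score. In the 472 members with at least 3 wide sites in each replicate, the top sites of the replicates overlapped in 217 (46.0%, interval 41.4 to 50.6). In APOB the highest score was 5.83 at nt 3547 to 3865 in replicate 1 and 5.44 at nt 6058 to 6210 in replicate 2.

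The 6 members with the largest score differences between replicates each had 1 or 2 wide sites in either replicate. TOMM20, a receptor of the mitochondrial protein import pore, scored 5.48 in replicate 1 and 1.78 in replicate 2, at sites that overlapped. IL17RB, an interleukin receptor, scored 7.30 and 4.12, and COPG1, a coat protein of Golgi vesicles, 6.99 and 3.90. In these 3 replicate 1 was higher, and in the other 3 replicate 2 was. HNRNPK, an RNA-binding protein, scored 0.70 and 4.29, MIF, a cytokine, 0.64 and 3.81, and SEC11C, a signal peptidase subunit, 2.67 and 5.83. SEC11C had its site at the same place in both, nt 471 to 509 and nt 471 to 510.

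Control sites on members were few. A site of any width in either control was found on 30 of the 1104 members (2.72%, interval 1.84 to 3.86), against 4.17% of all 2253 transcripts. Without control replicate 2 it was 1.18%, so this share rests on that library. For transcripts seen in an AEG1 library that were not members, it was 54 of 1139 (4.74%). Wide control sites had the opposite distribution. They lay on 20 members (1.81%, interval 1.11 to 2.78), against 0.976% of all transcripts and 1 of the 1139 AEG1 transcripts that were not members (0.0878%). Control replicate 1 had wide sites on 10 members and control replicate 2 on 15, with 5 in common, among them ALB, DKK1, GC and SERPINA1. The most covered members had them most often, 13 of 65 (20%) with at least 1000 nt against 2 of 541 (0.370%) with 26 to 99 nt.

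Most wide control sites lay inside the AEG1 sites of the same mRNA. Of 50 wide control sites, 46 (92.0%, interval 80.8 to 97.8) overlapped a wide site in both AEG1 libraries, and without ALB, which held 20 of the 50, it was 26 of 30 (86.7%). Where wide AEG1 sites cover most of an mRNA, as in ALB, GC and C3, overlap was nearly fixed by that coverage. The overlap was not tested against coverage. The exceptions on members were HNRNPA2B1, an RNA-binding protein, and VCP, a cytosolic ATPase that extracts proteins from the endoplasmic reticulum, where only AEG1 replicate 2 had a site there. The other exceptions lay on CDC42BPB and PATL1, which were not members. AEG1 sites over wide control sites, counted once for each control site they met (96 pairs), had a median width of 273 nt. These pairs were not separate places, since 1 ALB site of 1585 nt in AEG1 replicate 1 met all 20 ALB control sites. The mean AEG1 score exceeded that of the control site at 47 of 47 wide control sites with a site in both AEG1 libraries. The median difference was 6.08 on the log2 scale (range 0.21 to 9.71), and 20 of the 47 lay on ALB.

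Short control sites were matched by short AEG1 sites. Of 100 short control sites, 66 overlapped a site in both AEG1 libraries, but only 6 overlapped a wide one in both. The AEG1 sites that lay over short control sites were themselves mostly short. Over 155 pairs of a short control site and an AEG1 site, 132 had an AEG1 site of 25 nt or less, with a median of 20 nt. An AEG1 site that met sites of both controls was counted once for each. The score was higher in AEG1 at 50 of the 66, by a median of 0.64 (range -1.0 to 2.88).

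ALB had 11 and 9 separate sites without UV, all of them wide, against 5 and 10 with UV, but less covered length. Its wide sites covered 1045 and 814 nt without UV and 1987 and 1928 nt with UV. The widest control sites were nt 1012 to 1295 in replicate 1 and nt 1147 to 1345 in replicate 2, both inside the AEG1 site at nt 344 to 1928 in replicate 1. In AEG1 replicate 2 the widest site was nt 638 to 1357. Wide AEG1 sites covered 88.9% and 86.3% of the ALB span, so control sites could hardly lie outside them. GC had fewer sites and the same limit, with 86.2% and 86.6% of its span under wide AEG1 sites. Its control sites at nt 1612 to 1657, nt 1002 to 1112 and nt 1126 to 1193 all lay within the AEG1 replicate 2 site at nt 892 to 1756.

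PLCG2, a phospholipase that signals in blood cells, and CDK6, a cell cycle kinase, differed from these in having few sites. PLCG2 had 1 site in each AEG1 library at the identical place, nt 7942 to 8179, and control replicate 2 had sites at nt 7943 to 8018 and nt 8118 to 8168 inside it. The scores were 16.92 and 17.20 in the AEG1 libraries against 12.60 and 10.59 at the control sites, and control replicate 1 had none. CDK6 had a control site at nt 261 to 286 with a score of 8.12, within the AEG1 sites at nt 257 to 288 and nt 256 to 288, which scored 10.29 and 10.37. In VCP the control sites, nt 631 to 662 and nt 644 to 663, were met by an AEG1 site at nt 632 to 662 in replicate 2 alone, whose score of 4.02 was close to the control scores of 4.02 and 4.52. The higher AEG1 scores of VCP came from another place, nt 1146 to 1216 (6.19) and nt 1166 to 1202 (6.34).

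**Figure D3:**
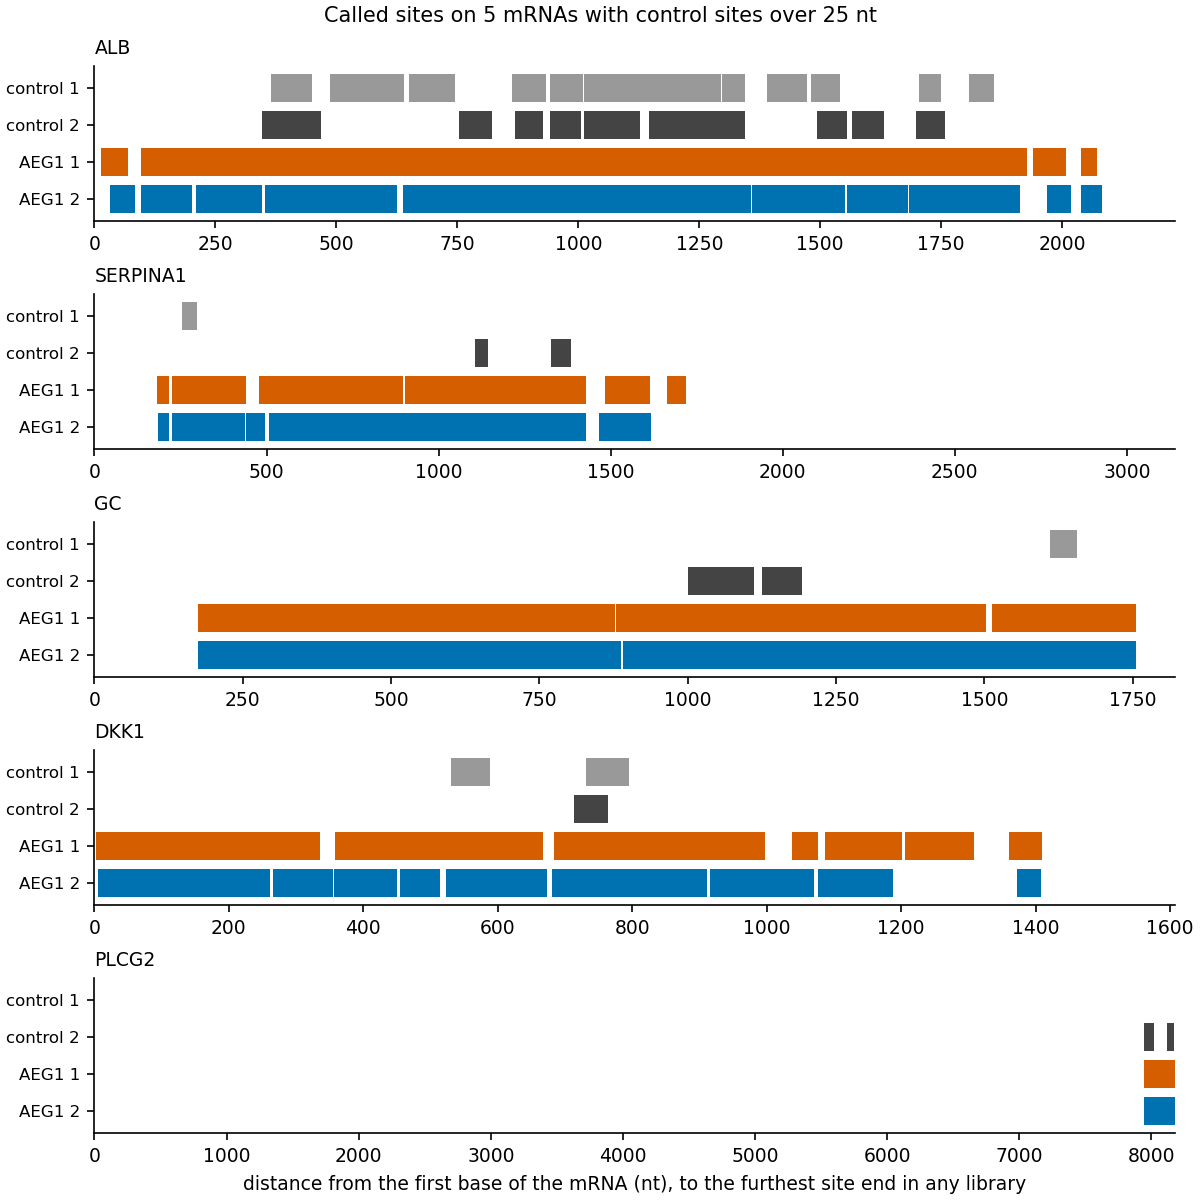
Sites of each of the 4 libraries drawn to scale along selected member mRNAs, with position in nt from the first base on the horizontal axis and 1 row per library. The mRNAs are ALB, SERPINA1, GC, DKK1 and PLCG2, and wide control sites fall where both AEG1 libraries have sites.

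The main test of scores took the 31 transcripts with a site in all 4 libraries, of which 8 were members. limma on the highest score per transcript, with Benjamini-Hochberg adjustment over the 31, called 7 higher in AEG1 (22.6%) and 0 lower (0.00%) at an adjusted p below 0.05. At an unadjusted p below 0.05 there were 10, of which 0 were lower. Members made up 6 of the 7 calls. Their differences had a median of 5.69 and ranged from 1.20 to 7.12, against a median of 0.54 and a range of -0.50 to 1.59 in the 23 other transcripts, where AGGF1, an angiogenic factor, was the one call. The median over all 31 was 0.71. Members were chosen by wide AEG1 sites, and taking off log2 width made their score differences smaller, as given below. How much of the gap between members and other transcripts comes from that rule was not tested.

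Both controls had a wide site in 5 of the 8 members and in 0 of the 23 other transcripts. With sites over 25 nt alone, 5 transcripts could be tested and all 5, among them the first 4 below, were called higher by limma.

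SERPINA1, or alpha-1-antitrypsin, scored 0.30 and 1.31 without UV and 7.50 and 8.36 with UV, a log2 difference of 7.12 (SE 0.57, limma adjusted p = 0.0134). GC scored 12.58 and 14.75 against 20.28 and 20.55, a difference of 6.75 (SE 0.94, limma adjusted p = 0.0331). For both, the lower AEG1 score lay over 5 above the higher control score. DKK1, a secreted inhibitor of Wnt signalling, was the steadiest, with 6.75 and 6.84 against 13.31 and 13.27, a difference of 6.49 (SE 0.09, limma adjusted p = 0.000456). ALB scored 0.36 in each control against 6.31 and 5.34, a difference of 5.47 (SE 0.42, limma adjusted p = 0.0134). These 4 mRNAs had a wide site in both controls, and all encode secreted proteins.

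Among the other members with sites in all 4 libraries, VCP, ABCC3 and ATP2B2 had a short site in at least 1 control and a smaller difference. VCP differed by 2.00 (SE 0.24, limma adjusted p = 0.0259). ABCC3, an exporter of organic anions, had control sites of 19 nt and scored 8.88 and 7.88 against 10.69 and 10.12, with a limma adjusted p of 0.110. ATP2B2, a calcium pump of the plasma membrane, scored 9.41 and 7.74 against 9.41 and 10.15 (limma adjusted p = 0.421), so its groups touched. In ABCC3 the highest AEG1 scores lay at different places in the replicates, nt 1198 to 1240 and nt 3961 to 4016.

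These calls depended on single libraries. With a library left out, its group is 1 library, which is assumed to vary like the other group. Without either AEG1 library 4 of the 7 calls were lost, those of SERPINA1, GC and VCP among them, and ALB, DKK1 and AGGF1 were kept. SERPINA1 and ALB lost theirs without either control, and VCP without control replicate 1, which kept 4 of the 7, against 5 without control replicate 2. Leaving out AEG1 replicate 1 or either control also brought 1 call of a lower score, on a transcript that was not a member. DKK1 passed with every library left out in turn, with differences from 6.45 to 6.54. With the replicate number as a block, 2 calls remained, SERPINA1 and DKK1. Differences of all 8 members kept their sign throughout. With log2 width taken off each score, an alternative added after the data were seen, VCP was not called (limma adjusted p = 0.453). The differences of SERPINA1, GC, DKK1 and ALB were then 3.37, 3.39, 4.46 and 2.64, smaller than before but still called.

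**Figure D4:**
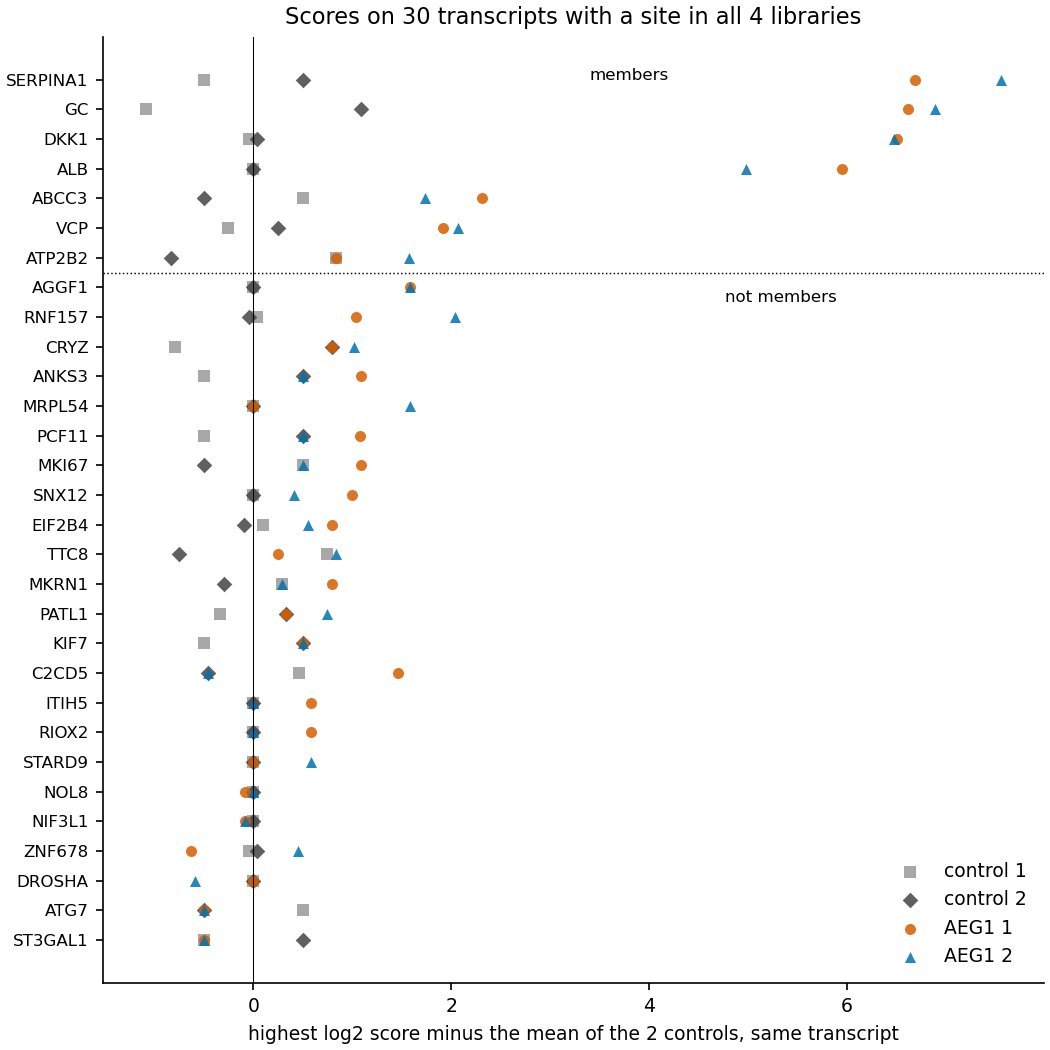
Highest log2 score per library minus the mean of the 2 controls, on the horizontal axis, for 7 of the 8 members with a site in all 4 libraries and the 23 other such transcripts, 1 row per transcript. In SERPINA1, GC, DKK1 and ALB the AEG1 points lie 5.47 to 7.12 from the controls on average, while the 23 transcripts that are not members lie near 0, with a median of 0.54.

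Of the other members with a wide control site, each was seen in 1 control only. None of them entered the main test, and values are given as they stand. C3 scored -0.12 in control replicate 2 against 7.79 and 8.32 in the AEG1 libraries, and P4HB, the protein disulfide isomerase, -0.89 against 5.98 and 5.95. EEF1A1, the translation elongation factor, scored -3.48 in control replicate 1 against 3.14 and 2.75, and PSAP, the precursor of lysosomal saposins, 3.21 against 9.37 and 8.69. These 4 lay about as far from their controls as the 4 mRNAs tested first. The differences were smaller in HSP90B1, the chaperone of the endoplasmic reticulum, at 0.88 against 3.07 and 3.77, FTH1, the ferritin heavy chain, at -0.49 against 2.76 and 2.86, and HNRNPA2B1, at 0.87 against 3.33 in each AEG1 library. A2M scored 1.63 against 5.28 and 5.16, and SERPINF1, a secreted serpin, 1.66 against 5.52 and 5.36. TM9SF2, a membrane protein of the Golgi and endosomes, scored 4.07 against 8.83 and 8.72, RELN, the matrix protein reelin, 3.57 against 7.46 and 7.82, and SLC6A14, an amino acid transporter, 8.44 against 13.17 and 13.38. In all 20 members with a wide control site, each AEG1 library had a higher top score and more nt under wide sites than either control.

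Wide sites lay toward the first part of the span in both AEG1 libraries. The median relative centre, from 0 at the first base to 1 at the end of the span, was 0.40 in each (quartiles 0.23 and 0.61). Cut into 5 equal stretches, the span held 20.2%, 29.5%, 24.4%, 16.3% and 9.54% of the wide member sites of replicate 1, and 20%, 29.6%, 24.4%, 16.7% and 9.39% of those of replicate 2. The second stretch was thus the fullest and the last the emptiest, in nearly the same proportions in both. The first wide site of a member started at a median of nt 433.5 in replicate 1 and nt 471 in replicate 2. A wide site started within the first 100 nt in 13.5% and 11.8% of members. Coding and untranslated parts were not told apart, since their boundaries were not used here. The 21 and 27 wide control sites on members had median relative centres of 0.44 and 0.46.

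Sorted by where the encoded proteins go, members were frequent among mRNAs for the secretory pathway. For tail-anchored proteins the share was not set apart from that over all protein-coding genes. The lists hold 697 genes and 329 of the members (29.8%), and were drawn up with earlier results of these data known. Members made up 242 of 343 genes (70.6%, interval 65.4 to 75.3) of the 9 lists for secreted, membrane, endoplasmic reticulum, Golgi and lysosomal proteins, and 76 of 246 (30.9%, interval 25.2 to 37.1) of the lists for cytosolic and nuclear proteins. The same share was 5.50% over 20056 protein-coding genes. Of the genes with any site in either AEG1 library, members were 242 of 271 in the first group and 76 of 128 in the second, against 1104 of 2241 (49.3%) over all such genes. Amounts of each mRNA in the cells were not measured, so an abundant mRNA and one that is bound more often cannot be told apart. Covered length differed as well, with medians of 448 and 400 nt in the first group of members against 173.5 and 125.5 nt in the second, beside 152 and 131 nt over all members. The gap between neighbouring wide sites was 53 and 59 nt at the median against 114 and 123 nt.

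The list for folding and quality control in the endoplasmic reticulum had the highest share, 31 of 36 genes (86.1%). It was led by GANAB, HSP90B1, with 1882 and 1769 nt, and OS9, a lectin that marks misfolded glycoproteins, with 1160 and 1062 nt. Plasma proteins made by liver cells followed with 32 of 42 (76.2%), and had a median of 839.5 and 725.5 nt covered and a median replicate overlap of 91.3%. Control sites were found on 5 of these 32. Matrix and basement membrane proteins had 13 members of 27 (48.1%), or 13 of the 15 with any AEG1 site, and these members had the longest coverage of the 9 lists, a median of 1473 and 1215 nt. LAMC1, a laminin chain, had 1901 and 1997 nt.

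Membrane proteins of the cell surface were members in similar shares. Single-span receptors had 34 of 46 (73.9%), among them IGF2R, PLXNB2, a plexin receptor for semaphorins, at 1972 and 1791 nt, and LRP5, a Wnt co-receptor, at 1574 and 1435 nt. Transporters and pumps that cross the membrane several times had 23 of 35 (65.7%). SLC12A2, a sodium, potassium and chloride cotransporter, had 1728 nt covered in each replicate, and ATP2A2, the calcium pump of the endoplasmic reticulum, had 1787 and 1803 nt. Here, too, the replicates differed little.

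Proteins that build the secretory pathway itself were also common. The machinery for translocation and glycosylation had 27 members of 38 (71.1%) and 0 with a control site, and included STT3A, the catalytic subunit of oligosaccharyltransferase, at 1431 and 1252 nt, and RPN2, another subunit, at 1354 and 1324 nt. NOMO1, a partner of the translocon, had 1968 and 1979 nt, but NOMO3, a near-identical copy, was also a member, and how reads were divided between such copies is not stated in the labels. Golgi and vesicle transport proteins had 30 of 42 (71.4%), led by MAN1A1, a Golgi mannosidase, at 1445 and 1203 nt. Lysosomal proteins had 27 of 37 (73.0%), led by PSAP at 2132 and 1987 nt and GRN, or progranulin, at 1575 and 1321 nt. LAMP1, a major protein of the lysosomal membrane, had 1435 and 1228 nt. Enzymes and regulators of lipid and sterol synthesis in the endoplasmic reticulum had 25 of 40 (62.5%), among them SCD, a fatty acid desaturase, at 1517 and 1189 nt.

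Tail-anchored proteins, which reach membranes after translation, had 1 member of 35 (2.86%, interval 0.0723 to 14.9). It was STX5, a SNARE of the Golgi, with 1 site of 29 nt in replicate 1 and 27 nt in replicate 2, just over the width minimum. With AEG1 replicate 1 left out there were 3 members and with replicate 2 left out 2, which are 8.57% and 5.71%, so the count rests on single sites. The interval also holds the 5.50% over all protein-coding genes, and 4 of the 35 had any AEG1 site. Nuclear-encoded mitochondrial proteins had 7 of 52 (13.5%), led by HSPD1, the mitochondrial chaperonin, at 323 and 255 nt. On AEG1 replicate 1 alone this was 17 of 52 (32.7%), so that count rests on the second library.

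Cytosolic lists were not uniform. Ribosomal proteins had 26 members of 43 (60.5%), near the shares of secretory lists, but each with little coverage, a median of 2 and 1 wide sites over 104.5 and 86 nt. RPL13A, a protein of the large subunit, had 241 and 229 nt. None of the 26 had a control site. Cytoskeletal proteins had 19 of 40 (47.5%), including ACTB, or beta-actin, at 842 and 803 nt. Glycolysis and cytosolic metabolism had 10 of 40 (25%), with FASN, which makes fatty acids, at 1095 and 763 nt, PKM, the pyruvate kinase, at 498 and 373 nt, and GAPDH, the glycolytic dehydrogenase, at 256 and 250 nt. Translation factors and tRNA synthetases had 10 of 43 (23.3%), led by EEF2, the translocation factor of elongation, at 1292 and 1121 nt, and EEF1A1 at 1189 and 1073 nt.

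Proteasome, chaperonin and cytosolic chaperones had 7 of 40 (17.5%), led by HSPA8, the constitutive cytosolic chaperone, at 906 and 656 nt. Chromatin and nuclear factors had 4 of 40 (10.0%), with PRKDC, a DNA repair kinase, at 236 and 47 nt, and KMT2A and ARID1B, a subunit of a remodelling complex, at 32 nt or less. The shares of several low lists rested on which library was used. On AEG1 replicate 1 alone, the chaperone list had 15 of 40 (37.5%), the chromatin list 7 of 40 (17.5%) and the translation list 16 of 43 (37.2%), and on replicate 2 alone the chaperone list had 11 (27.5%).

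**Figure D5:**
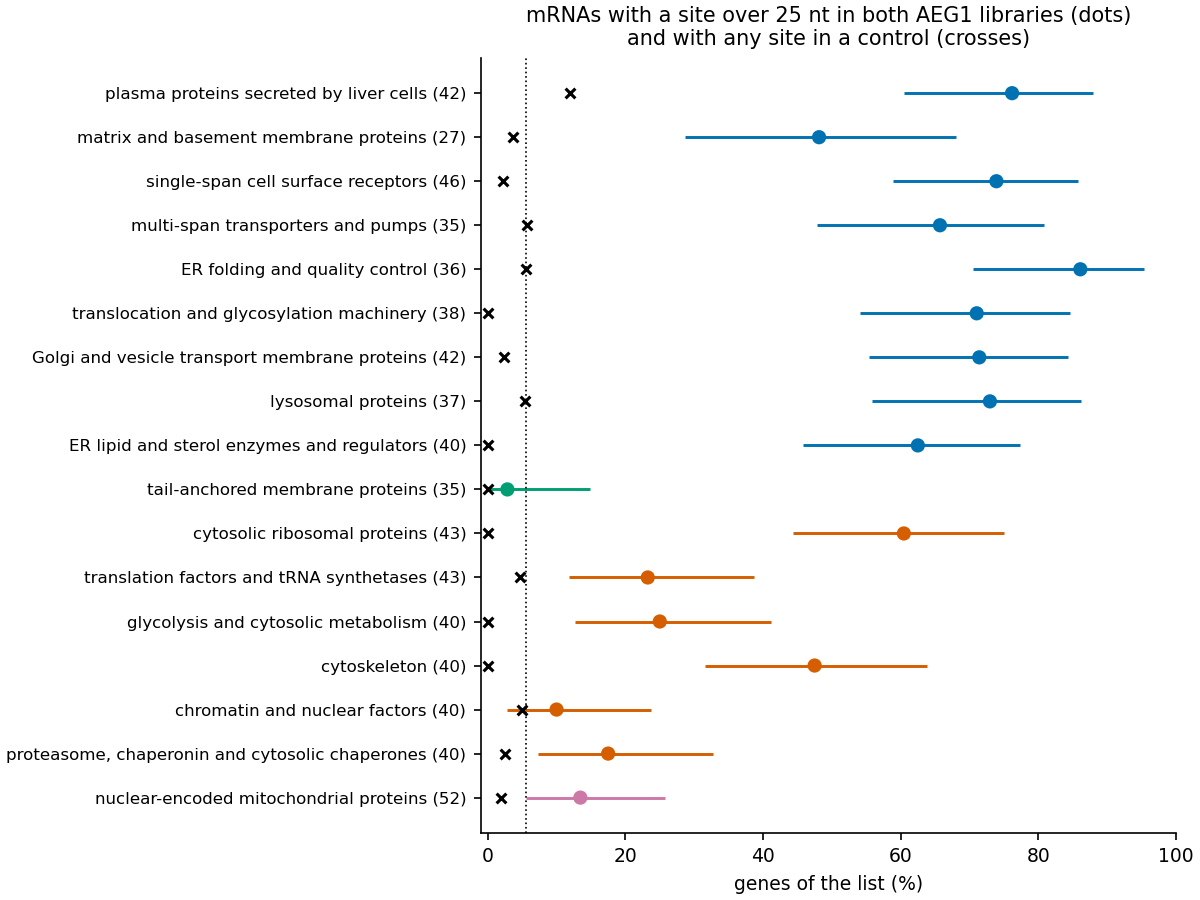
Share of each gene list that were members (dots, in percent, with exact 95% binomial intervals), share with any control site (crosses) and share of members over all protein-coding genes (dotted line), with secretory and membrane lists in blue, tail-anchored in green, cytosolic and nuclear in orange and mitochondrial in pink. Secretory and membrane lists lie between 48.1% and 86.1%, ribosomal proteins at 60.5%, and tail-anchored proteins at 2.86%.

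MTDH, which encodes AEG-1, was itself a member, with 710 nt under wide sites in replicate 1 and 524 nt in replicate 2 and no control site. Its highest score was 9.24 at nt 942 to 989 and 10.12 at nt 942 to 997, so the top sites of the replicates shared their start. The line carries an introduced copy, and RNA from that copy and from the cell's own gene cannot be told apart. SND1, a nuclease domain protein reported to bind AEG-1, was not a member. It had 1 site in replicate 1, nt 1177 to 1215 with a score of 5.00, and none in replicate 2.

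At the edge of the width rule, 14 members had a widest site of just 26 nt in one of the AEG1 libraries, among them PIGO, an enzyme of glycolipid anchor synthesis, SPN, a surface sialoglycoprotein, and ZNF771, a zinc finger protein. ZNF771 had the identical site in both replicates, nt 160 to 185, with a score of 11.41 in each. Just outside, 11 transcripts with sites in both AEG1 libraries had a widest site of just 25 nt in the library with the narrower one, among them MAP2K7, a stress kinase, SLC25A28, a mitochondrial iron carrier, and BMP2K, a kinase.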

How the data were processed

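HITS-CLIP sites of 2 AEG1 libraries and 2 unirradiated controls were analysed. Per the labels' protocols, RNA was partly digested with RNase I, precipitated with anti-HA, gel-purified on nitrocellulose and made into small RNA libraries for Illumina sequencing. The submitters' processing notes name Bowtie; the reference, site caller and its threshold are not described in what was used here. The authors deposited, per library and without a header, the transcript, gene symbol, both site ends and a score on the log2 scale, as read from its values; how the authors normalized that log2 score is not described either.

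Width is end minus start, and starts were taken as 0-based and printed from 1. Members have a site over 25 nt in both AEG1 libraries. The members, the 20 gene lists and the rules for named genes were chosen with earlier results of these data known. Of the members, 1100 matched a RefSeq table (GRCh38.p14) by accession and 4 by symbol. Overlap means at least 1 nt. Shares carry exact Clopper-Pearson 95% intervals. Library values were compared by exact permutation, and highest scores per transcript with limma 3.58.1 in R 4.3.3, at an adjusted p of 0.05, tested first on simulated data. Other values came from pandas 2.3.3 and scipy 1.17.1. With no read counts, no count model was run.

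Named genes were, by rule, the 12 members with most covered nt, members with most control sites or any wide one, the largest and smallest score differences, the 3 members of each list with most sites, the 6 with the largest replicate differences, the extremes of replicate overlap, MTDH, and genes just inside or outside the width minimum. NOMO3, AGGF1, SND1, CDC42BPB, PATL1, CD14, HNF4A and DLK1 were named outside that rule, after their values were seen. Alternatives covered the width minimum, overlap rule, single libraries, score summaries and the replicate block. No sequence of the sites, coding boundaries, transcript lengths or protein features were analysed here. Some genes picked by the rule are not reported here.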

Additional observations from a re-analysis of the deposited data

Results flagged for a closer look

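The PAR-CLIP libraries of the same line lie outside the comparison and also list these mRNAs. Of the 1104 members, 1076 (97.5%) had a site of any width in the PAR-CLIP AEG1 library, against 61 (5.53%) in the PAR-CLIP control. For the 1139 transcripts seen in a HITS-CLIP AEG1 library that were not members, these were 974 (85.5%) and 1 (0.0878%). The PAR-CLIP AEG1 library listed 8009 of the 8204 transcripts of the series, so a high share there does not set the members apart from the series. With 1 library on each side there is no replicate check.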

How the results depend on the processing

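The main results under the alternatives were not classed by 1 common limit of change. Every alternative of the ratio of wide sites was entered as the same without any limit of change. Values of 80.2 and 109 against 224 therefore count as the same. The number of members was classed as moved at 677 against 1104, with its direction kept. In these classes 70 values were the same, 27 moved and 4 turned sign. The 70 include values that changed in size and labels fixed beforehand, so they do not measure stability. All 4 are the difference in median width of -7.5 nt, which became 30.5 nt with no width minimum, 9.25 over 20 nt, 5 over 50 nt and 6 by the widest site per transcript; leaving out a library gave -10.5 to -4.5. The 1104 members became 677 over 50 nt and 724 at or above the median score of the library. That last limit sets scores of different transcripts side by side, though they are not on one scale. The 2.72% of members with a control site became 5.22% with no minimum, 1.81% for wide sites, 0.725% for both controls and 1.18% to 2.51% without a library. The 92.0% of wide control sites that met a wide site in both AEG1 libraries became 75.3% with no minimum, 73.8% over 20 nt and 100% over 50 nt. Replicate overlap was 72.7% for both libraries together, 56.1% by 50% of each site, 67.5% by the centre and 66.7% over 50 nt. The 7 higher scores became 2 with the replicate block, 3 by median score, 4 after taking off log2 width, 25 with at least 1 library of each group (71 tested), 2 over 50 nt (2 tested) and 4 to 7 without a library. The relative centre of 0.402 became 0.387 by start, 0.405 with no minimum, 0.399 over 50 nt and 0.403 to 0.406 without a library. The secretory share of 70.6% became 65.0% over 40 nt, 58.0% over 50 nt and 72.6% to 76.4% on 1 AEG1 library, and the cytosolic share of 30.9% became 21.5% over 50 nt and 36.6% to 43.1%. Except where the setting itself tests fewer or more transcripts, the cause was not tested. Of the values of single genes and lists, 233 stayed, 13 moved, 25 lost and 1 gained a call, and 0 turned sign. Both the 70 and the 233 include list shares by any transcript of the gene. That setting used the same members and could not differ.

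The ratio of wide sites, 224, was 80.2 with no width minimum, 146 over 20 nt, 229 over 30 nt, 199 over 40 nt, 174 over 50 nt, 210 by covered nt, 109 by transcripts, 226 with the replicate block and 193 to 267 without a library. Same-numbered libraries deviated together with a correlation of 0.111 over 31 transcripts, from only 2 pairs that share a number, so no pairing was used. Alternatives by transcript length and by protein features were not run. With 2 libraries a group, no read counts and no RNA abundance, depth and mRNA amount limit every comparison of lists and of site numbers.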
